A study of Mus musculus with 8 samples.

Results

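Across 8 libraries of isolated white adipocytes, 10 genes of blood vessel growth and of the vessel lining were followed, of 30387 genes in the table. They were picked by name as angiogenic factors (Vegfa, Vegfb, Vegfc, Angpt1, Angpt2), receptors of the endothelium (Kdr, Flt1, Tek) and junction proteins of endothelial cells (Pecam1, Cdh5). Each of the 10 had 1 row, and all 10 passed the filter of a mean of at least 5 normalized counts. All are protein-coding, and their positions below are those of the deposited table, on GRCm38.

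Vascular endothelial growth factors are secreted proteins that bind receptor tyrosine kinases on endothelial cells and drive vessel growth and permeability. Angiopoietins act through a separate endothelial receptor, where Angpt1 keeps vessels stable and Angpt2 can loosen them. In fat tissue, adipocytes are a known source of Vegfa, which rises under low oxygen, and growing fat pads depend on new capillaries. YAP and TAZ are transcriptional co-activators that work with TEAD proteins on DNA.

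Adipocytes were isolated from the epididymal white fat of Ad-Yap/Taz-KO mice, called the knockout here, and of wild-type (WT) littermates. The knockout carries Adipoq-Cre, with Cre under the adiponectin promoter, on Yap fl/fl and Taz fl/fl, so both genes are floxed on both copies. That promoter is active in adipocytes, so endothelial cells were not targeted. Controls of a tamoxifen-inducible line in the same study were floxed littermates. For the line used here, the alleles of the WT littermates were not given in the sources used here. The males of each genotype received HFD or normal chow (NC) for 4 weeks, starting at 5 weeks of age by the labels and slightly later by the study's methods. Each of the 4 groups (WT on NC, Ad-Yap/Taz-KO on NC, WT on HFD, Ad-Yap/Taz-KO on HFD) had 2 libraries, and the study counts as many mice per group for these data, so the libraries of a group were taken as separate mice.

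Depth lay between 14.0 and 22.3 M reads on genes. Yap1 had 2776 and 2717 normalized counts in WT against 1669 and 1699 in the knockout on NC, and 2468 and 2333 against 1549 and 2068 on HFD. Wwtr1, the gene for TAZ, had 5594 and 4743 against 2441 and 1957 on NC, and 7121 and 6807 against 2060 and 2707 on HFD. Both genes were lower in every knockout library than in any WT library of the same diet, and by limma Wwtr1 was called on both diets and Yap1 on NC (adjusted p = 0.0238) but not on HFD (adjusted p = 0.0591). The WT HFD pair lay closest together, with a squared difference 5.87 times the counting expectation at 1000 to 5000 reads, against 27.9 to 72.8 times in the other groups. Results that rest on this pair were therefore also computed with its mean as 1 sample.

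Adipocyte libraries held RNA of several cell types. The summed 20 endothelial markers (none of them among the 10 genes) lay between 18394 and 41000 normalized counts per library, and none of the 20 had a mean under 5. Markers of adipocytes (10 genes) summed to 256403 to 335851 on NC in either genotype. On HFD they summed to 393950 and 385828 in WT, and to 184632 and 98997 in the knockout. Macrophage markers (9 genes) summed to 4761 and 4718 in WT on NC, 28638 and 16074 in the knockout on NC, 2260 and 2159 in WT on HFD, and 30959 and 29220 in the knockout on HFD. In such bulk samples, fewer cells of a type and less RNA per cell cannot be told apart. The parts of these cell types in the results below were not tested, and ratios to their markers are given as values with no test.

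**Figure D1:**
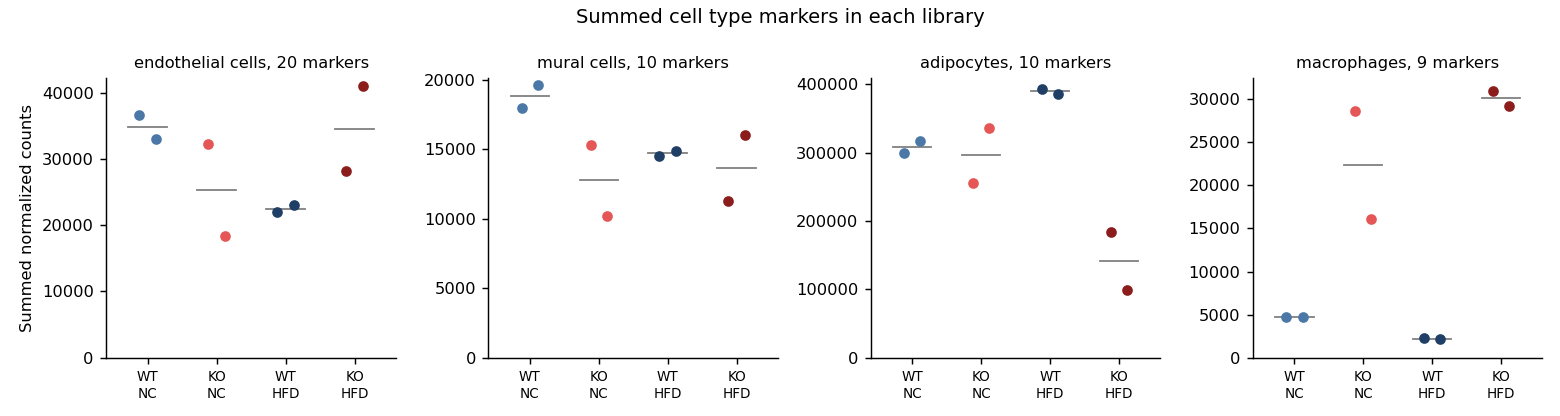
Summed normalized counts (y axis, from 0) of the markers of 4 cell types in each library, by group (x axis); points are libraries and the grey line is the mean of both. Endothelial markers are highest in WT on NC and in 1 Ad-Yap/Taz-KO library on HFD (41000), adipocyte markers are lowest in Ad-Yap/Taz-KO on HFD, and macrophage markers are higher in both Ad-Yap/Taz-KO groups than in either WT group.

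Bases before the start of 4 of the genes are shown because Vegfa and Vegfb were lower in Ad-Yap/Taz-KO libraries on both diets, and because Kdr and Flt1, which encode the receptors for these ligands, moved together. The sequences are RefSeq promoters on GRCm38.p6, 5′ to 3′ on the strand of the gene, and all 4 genes lie on the minus strand. Capitals mark the hypoxia response core, ACGTG or GCGTG, on either strand; the TEAD motif GGAATG, which neither contains nor is contained in the core, was also searched on both strands.
Vegfa, chr17:46032378-46032627: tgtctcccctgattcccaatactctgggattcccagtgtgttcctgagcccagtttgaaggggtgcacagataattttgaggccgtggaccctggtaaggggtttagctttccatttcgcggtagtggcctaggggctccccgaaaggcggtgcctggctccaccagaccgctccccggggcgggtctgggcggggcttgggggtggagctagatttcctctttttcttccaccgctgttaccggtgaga
Vegfb, chr19:6987652-6987901: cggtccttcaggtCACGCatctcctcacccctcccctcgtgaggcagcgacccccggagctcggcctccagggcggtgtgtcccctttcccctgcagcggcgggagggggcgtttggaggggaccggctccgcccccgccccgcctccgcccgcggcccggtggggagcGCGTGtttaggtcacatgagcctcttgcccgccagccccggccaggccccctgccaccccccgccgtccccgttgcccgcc
Kdr, chr5:75978456-75978705: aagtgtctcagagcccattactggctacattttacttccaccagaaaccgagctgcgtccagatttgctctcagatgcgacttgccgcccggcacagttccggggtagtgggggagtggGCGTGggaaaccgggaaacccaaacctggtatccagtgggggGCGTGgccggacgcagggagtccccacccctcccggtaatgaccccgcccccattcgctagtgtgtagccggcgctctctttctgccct
Flt1, chr5:147726012-147726261: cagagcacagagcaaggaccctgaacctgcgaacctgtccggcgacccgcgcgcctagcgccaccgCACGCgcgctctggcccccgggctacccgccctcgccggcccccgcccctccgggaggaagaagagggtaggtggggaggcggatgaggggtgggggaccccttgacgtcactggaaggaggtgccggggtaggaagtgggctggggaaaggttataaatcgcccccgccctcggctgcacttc
RefSeq promoters were matched for 6 of the 10 genes (Vegfa, Vegfb, Vegfc, Kdr, Flt1, Tek). GGAATG was in 0 of their 7 windows, and in 12.6% of 32851 mouse promoters over the same 250 bases. The hypoxia core was in at least 1 window of 4 of the 6 genes, and in that of 41.5% of 27025 genes; by window, it was in 4 of the 7 of these genes and in 38.6% of all promoters. Vegfb and Kdr each had 2 matches and Flt1 had 1. Vegfa had none in the window printed, and its matches lay in the window of a second start inside the gene. That window overlaps annotated exons, and Vegfa counts among the 4 genes only through it. A match is a run of letters and not a binding site, and the known hypoxia response element of Vegfa lies further upstream than this window.

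All 10 genes were detected in every library. Per kilobase of exon, the mean level over the 8 libraries was highest for Cdh5 (1704 normalized counts per kb, range 981 to 2401) and Vegfa (1444, range 634 to 2661). Pecam1 (931, range 577 to 1435) and Vegfb (810, range 280 to 1506) followed. Flt1 (419 per kb) and Kdr (408 per kb) lay next to each other, and Tek (234 per kb) below them. The angiopoietins were low, with 104 per kb for Angpt1 and 86.6 per kb for Angpt2, and Vegfc was lowest (27.1 per kb, range 12.7 to 48.6). Ranges of neighbours in this order overlapped throughout, and the order was the same with the length of the longest transcript.

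**Figure D2:**
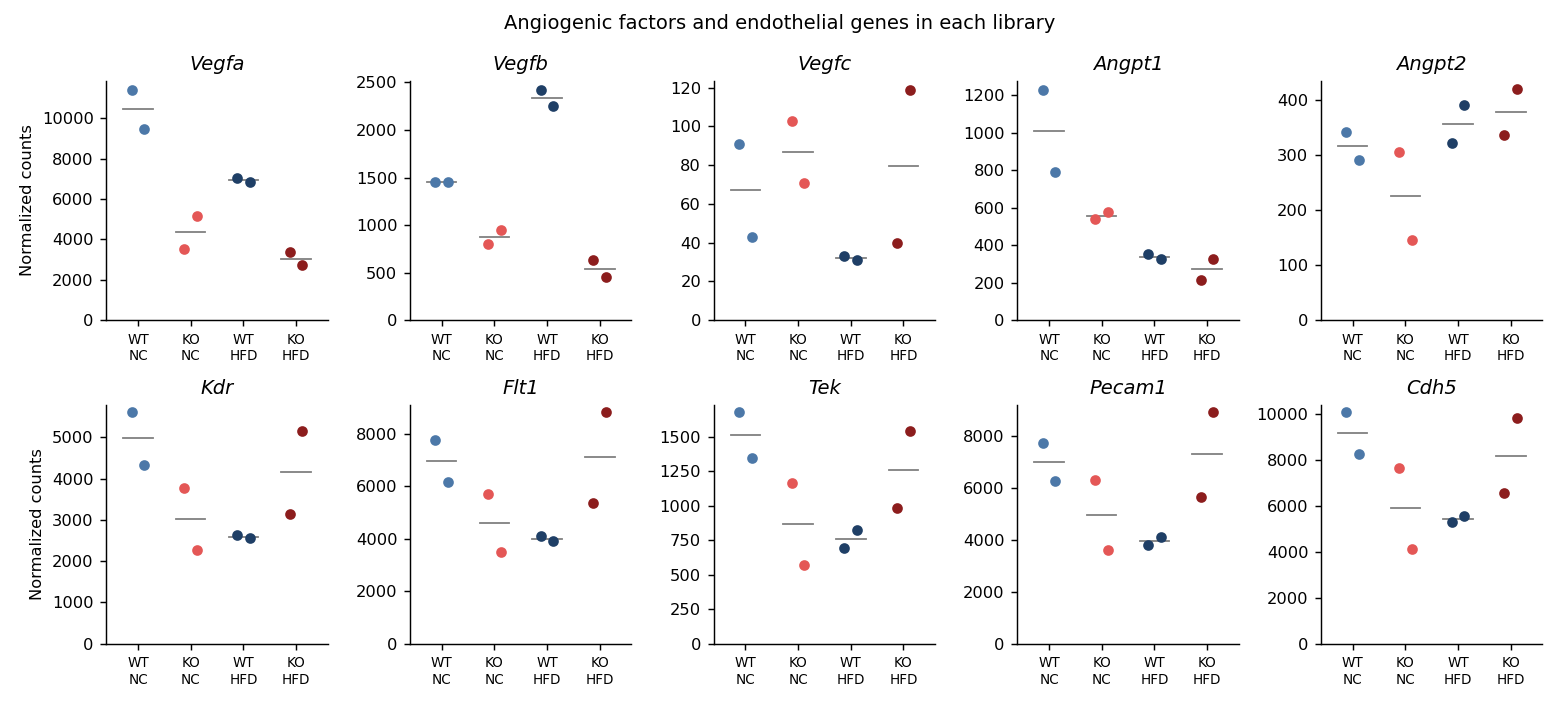
Normalized counts (y axes, from 0, each with its own scale) of the 10 genes in each library, by group (x axis); points are libraries and the grey line is the mean of both. Vegfa and Vegfb are lower in Ad-Yap/Taz-KO than in WT on either diet, while Kdr, Flt1, Tek, Pecam1 and Cdh5 share one profile, high in WT on NC and in 1 Ad-Yap/Taz-KO library on HFD.

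A call required a log2 difference of 0.59 or more, up or down, and an adjusted p no higher than 0.05, with adjustment over 18800 genes. Of the 10 genes, 2 were called on NC between the genotypes, both lower (Vegfa and Vegfb), where 4.71% of all genes were called in either direction. On HFD, 4 of the 10 were called, where 32.2% of all genes were called, 17.1% higher and 15.1% lower. The share of 4 in 10 is near that background.

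Vegfa (chr17:46016993-46032377, minus strand), the main growth factor for endothelial cells, was lower in the knockout on both diets. On NC it had 11403 and 9463 normalized counts in WT against 3526 and 5150 in the knockout. On HFD it had 7013 and 6835 in WT against 3378 and 2717 in the knockout. The genotypes did not overlap on either diet. Vegfa fell by 1.29 on the log2 scale on NC (limma, SE 0.19, Benjamini-Hochberg adjusted p = 0.00146) and by 1.19 on HFD (SE 0.19, adjusted p = 0.000519). Both calls held under each of the 21 alternatives fitted with limma, with log2 fold changes from -1.56 to -1.01 on NC and from -1.35 to -0.81 on HFD. The interaction of genotype and diet was 0.09 (95% interval -0.50 to 0.68, adjusted p = 0.841), so a difference between the diets was not detected.

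Vegfa was also lower on HFD than on NC in WT, where the libraries did not overlap. Its log2 fold change of -0.585 (SE 0.19, adjusted p = 0.0499) fell just short of the limit on size. With libraries scaled to the same total, by upper quartile or by quantiles it was -0.999, -0.716 and -0.859 and was called. In Ad-Yap/Taz-KO, the change with diet was -0.49 (95% interval -0.91 to -0.08, adjusted p = 0.24).

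Beside the adipocyte markers, Vegfa behaved differently on the 2 diets. On NC, Vegfa was 3.81% and 2.99% of the 10 summed adipocyte markers in WT against 1.38% and 1.53% in Ad-Yap/Taz-KO. On HFD, it was 1.78% and 1.77% in WT against 1.83% and 2.74% in Ad-Yap/Taz-KO. By this ratio the genotypes stayed apart on NC. On HFD, both Ad-Yap/Taz-KO values were above the WT values, 1 of them by little. Of the 10 adipocyte markers, 0 were called on NC by limma (0 at an unadjusted p under 0.05), beside 4.71% of all genes. On HFD, 9 of the 10 were called lower, beside 15.1% of all genes called lower. Their part in the level of Vegfa was not tested. Without Cfd, the marker with the highest mean, the percentages were 6.10 and 4.71 against 2.34 and 2.36 on NC, and 2.01 and 2.00 against 2.04 and 3.30 on HFD. The log2 difference between the diet effects, knockout minus WT, was 1.55 by this ratio in place of 0.09. The ratio depends on the markers summed. On HFD, Lep had 72885 and 73642 normalized counts in WT against 7257 and 1545 in the knockout. Fabp4, the marker not called lower, had 64916 and 56520 against 64080 and 36542. Ratios to a sum without Lep, or to Fabp4 alone, were not computed. The ratio was chosen after the values were seen and was not tested.

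Vegfb (chr19:6982473-6987651, minus strand), a growth factor that binds Flt1 and is abundant in tissues that burn fat, such as the heart, was higher on HFD than on NC in the WT libraries and lower on HFD than on NC in the knockout libraries, without overlap. In WT it had 1448 and 1449 normalized counts on NC and 2417 and 2254 on HFD. In Ad-Yap/Taz-KO it had 802 and 952 on NC and 629 and 450 on HFD. All 4 knockout libraries lay below all 4 WT libraries. On HFD, Vegfb fell by 2.13 on the log2 scale in the knockout, to 0.228 of the WT level (SE 0.18, adjusted p = 3.4e-06), and this call held under all 21 limma alternatives (-2.37 to -1.75). On NC it fell by 0.73 (SE 0.18, adjusted p = 0.0396), a call that was lost under 12 of the 21 alternatives, among them leaving out any 1 of the WT or of the NC libraries (adjusted p up to 0.24).

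The rise of Vegfb with HFD in WT was 0.69 (SE 0.18, adjusted p = 0.0216). It was 0.27 with libraries scaled to the same total, where the median of all genes was -0.48 in place of -0.08, and was then not called (adjusted p = 0.23). By quantiles it was 0.42 (adjusted p = 0.141) and by upper quartile 0.56, under the limit on size, and not called either. The call was also lost with no filter on low values (adjusted p = 0.065), with the WT HFD pair as 1 sample (adjusted p = 0.148) and without any 1 of the 4 WT libraries. In Ad-Yap/Taz-KO the change was -0.71 (95% interval -1.11 to -0.32, adjusted p = 0.0842). The difference between these diet effects was -1.40 (SE 0.26, adjusted p = 0.00637) and was called under all 20 limma alternatives, from -1.64 to -0.97. As a percentage of the 10 adipocyte markers, Vegfb was 0.484 and 0.458 in WT against 0.313 and 0.283 in the knockout on NC, and 0.614 and 0.584 against 0.341 and 0.455 on HFD. By this ratio the knockout libraries also lay below the WT libraries on each diet, but the log2 difference on HFD shrank from -2.13 to -0.61, while on NC it was -0.66. The log2 difference with diet became 0.35 in WT and 0.40 in the knockout, so that the difference between the diet effects went from -1.40 to 0.055. Without Cfd, these 2 diet differences were -0.14 and -0.08, and they differed by 0.064. The value near 0 depends on the markers summed. For the interaction, 9 of the 10 markers were themselves called lower by limma, and Fabp4 was not called. The median log2 value of the 10 was -1.41. Lep stayed in the sum with and without Cfd. Ratios of Vegfb to a sum without Lep, or to Fabp4 alone, were not computed. No test was run on this ratio.

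Vegfc (chr8:54077606-54187096, plus strand), best known as a ligand of the lymphatic receptor Flt4, was near the bottom of the range, and its values were scattered. It had 91 and 43 normalized counts in WT against 103 and 71 in the knockout on NC, and 33 and 31 against 40 and 119 on HFD. The genotypes overlapped on NC, and on HFD the 2 knockout libraries differed widely. The log2 difference on HFD was 1.09 (95% interval -0.10 to 2.28, adjusted p = 0.144), and no other contrast of Vegfc was called either. Without the first knockout library on HFD the difference was 1.86, and without the second it was 0.31.

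Angpt1 (chr15:42424727-42676977, minus strand), the ligand that activates Tek, was lower on HFD than on NC. Its normalized counts were 1225 and 790 in WT on NC, 540 and 574 in the knockout on NC, 352 and 324 in WT on HFD, and 215 and 327 in the knockout on HFD. Every HFD library lay below every NC library. In WT, Angpt1 fell by 1.54 on the log2 scale with HFD (SE 0.25, adjusted p = 0.00205), and this call held under all 21 limma alternatives (-1.95 to -1.22). In Ad-Yap/Taz-KO the value was -1.07 (95% interval -1.61 to -0.53, adjusted p = 0.0623), and the 2 diet effects differed by 0.47 (95% interval -0.29 to 1.23, adjusted p = 0.369). Between the genotypes, the log2 difference was -0.82 on NC (adjusted p = 0.0911), from -1.14 to -0.50 over the 21 limma alternatives. On HFD it was -0.35 (adjusted p = 0.302), and 0.04 with libraries scaled to the same total. An antisense gene, Gm17473, covers 14.2% of the exon bases of Angpt1, and since use of strand in the counting was not stated, reads there may come from either gene.

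Angpt2 (chr8:18690263-18741562, minus strand), the context-dependent antagonist of Angpt1 on Tek, showed no called change. It had 342 and 292 normalized counts in WT on NC, 306 and 146 in the knockout on NC, 322 and 391 in WT on HFD, and 337 and 421 in the knockout on HFD. The genotypes overlapped on each diet, and in the knockout both HFD libraries lay above both NC libraries. The log2 change with HFD was 0.17 in WT (95% interval -0.50 to 0.83), turning to -0.25 with libraries scaled to the same total, and 0.83 in Ad-Yap/Taz-KO (95% interval 0.17 to 1.49, adjusted p = 0.213). Without the first knockout library on NC, the change with diet in the knockout was 1.36 and the genotype difference on NC -1.11. Without the second they were 0.30 and -0.05. The difference between the diet effects was 1.195 without the first and 0.13 without the second. The ratio of Angpt2 to Angpt1 was 0.279 and 0.370 in WT against 0.567 and 0.254 in the knockout on NC. It was 0.915 and 1.21 in WT against 1.57 and 1.29 in the knockout on HFD, so that all 4 HFD libraries lay above all 4 NC libraries. A ratio within a library does not depend on how libraries are scaled.

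**Figure D3:**
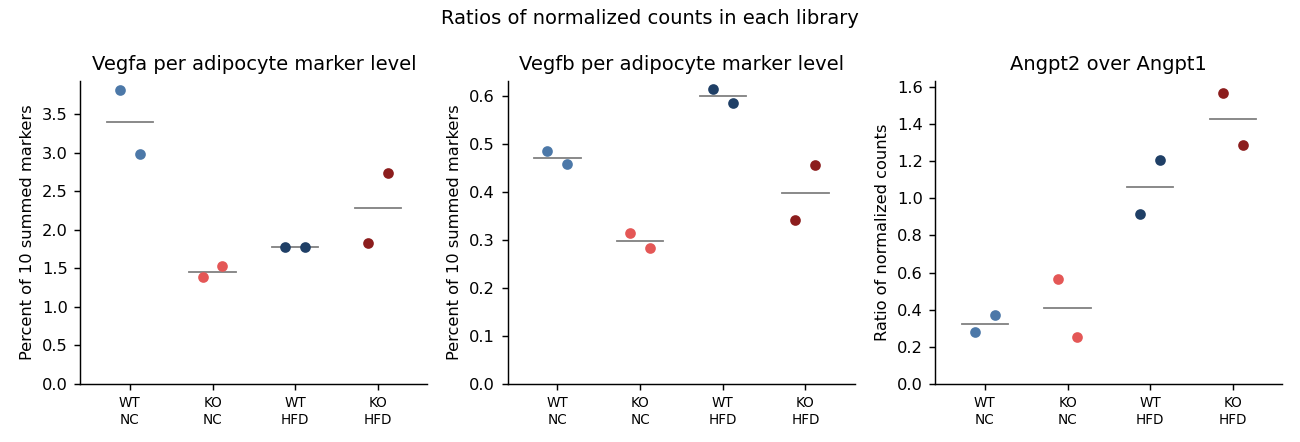
Vegfa and Vegfb as a percentage of 10 summed adipocyte markers, and Angpt2 divided by Angpt1 (y axes, from 0), in each library by group (x axis); points are libraries and the grey line is the mean of both. Vegfa per adipocyte marker is lower in Ad-Yap/Taz-KO on NC (1.38% and 1.53% against 3.81% and 2.99%) but not on HFD, Vegfb is lower on both diets, and the angiopoietin ratio is above 0.9 in all HFD libraries and below 0.6 in all NC libraries.

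The receptors Kdr, Flt1 and Tek and the junction genes Pecam1 and Cdh5 moved together, with the highest levels in WT on NC and in 1 of the Ad-Yap/Taz-KO libraries on HFD. Kdr (chr5:75932827-75978458, minus strand), the main signalling receptor for Vegfa, had 5624 and 4339 normalized counts in WT against 3765 and 2261 in the knockout on NC, and 2625 and 2567 against 3146 and 5167 on HFD. Flt1 (chr5:147561604-147726011, minus strand), a receptor that binds Vegfa and Vegfb and whose soluble form traps them, had 7747 and 6146 against 5692 and 3502 on NC, and 4085 and 3905 against 5360 and 8829 on HFD. On NC the knockout lay below WT for both genes, and on HFD above it, without overlap. Values per gene cannot separate the soluble from the full-length form of Flt1.

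Tek (chr4:94739289-94874976, plus strand), the angiopoietin receptor, had 1679 and 1349 normalized counts in WT against 1165 and 570 in the knockout on NC, and 696 and 828 against 986 and 1541 on HFD. Pecam1 (chr11:106654217-106750628, minus strand), an adhesion protein of endothelial junctions that is also made by platelets and some leukocytes, had 7735 and 6277 against 6285 and 3595 on NC, and 3800 and 4095 against 5640 and 8935 on HFD. Cdh5 (chr8:104101625-104144511, plus strand), the cadherin of endothelial junctions, had 10090 and 8227 against 7652 and 4122 on NC, and 5307 and 5546 against 6544 and 9819 on HFD. In Ad-Yap/Taz-KO the 2 libraries of a diet lay far apart for each of these genes, with the second library lower on NC and higher on HFD, while the WT HFD pair lay close together. For Pecam1, 1 knockout library on NC (6285) reached the lower WT library (6277). The other genes did not overlap between genotypes on either diet, with only 2 libraries in each group. The share of all genes without such overlap was not counted.

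With HFD in WT, 4 of these 5 genes fell and were called. The log2 changes were -0.93 for Kdr (SE 0.26, adjusted p = 0.0252), -0.79 for Flt1 (SE 0.25, adjusted p = 0.0443), -0.99 for Tek (SE 0.30, adjusted p = 0.0348) and -0.82 for Pecam1 (SE 0.26, adjusted p = 0.0411). Cdh5, at -0.75 (SE 0.26, adjusted p = 0.0601), did not pass, but was called under the 3 other scalings and without any 1 of the knockout libraries. Over all 10 genes, 6 were called in this contrast, where 18.0% of all genes were called: Vegfb among the 8.74% higher, and Angpt1 with these 4 among the 9.22% lower. The 4 calls were lost without any 1 of the WT libraries and with the WT HFD pair as 1 sample (adjusted p from 0.149 to 0.205 for the 4 genes), but not the call of Angpt1.

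On HFD, Flt1 was 0.78 higher (SE 0.25, adjusted p = 0.0289) and Pecam1 0.85 higher (SE 0.26, adjusted p = 0.0222) in Ad-Yap/Taz-KO than in WT on the log2 scale. Kdr (0.64, adjusted p = 0.0723), Tek (0.70, adjusted p = 0.085) and Cdh5 (0.56, adjusted p = 0.112) did not pass. Without the second Ad-Yap/Taz-KO library on HFD, Flt1 was at 0.42 and Pecam1 at 0.52 and neither was called, and both calls were also lost without either WT HFD library or with that pair as 1 sample. On NC, none of the 5 was called between the genotypes, with log2 differences from -0.88 for Tek to -0.55 for Pecam1; 4 of the 5 had an unadjusted p under 0.05. Without the first knockout library on NC, the differences on NC were -1.13 for Kdr, -1.40 for Tek and -1.14 for Cdh5. Without the second they were -0.39, -0.37 and -0.25. On HFD, Kdr, Tek and Cdh5 were at 0.99, 1.02 and 0.86 without the first knockout library on HFD. Without the second they were at 0.28, 0.38 and 0.27. With libraries scaled to the same total, Kdr, Tek and Cdh5 were called (1.02, 1.08 and 0.95).

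No gene of the 10 was called with diet in Ad-Yap/Taz-KO, where 1.07% of all genes were called; 6 of the 10 had an unadjusted p under 0.05 by limma. Without the first knockout library on NC, the log2 changes were -0.765 for Vegfa, -0.838 for Vegfb, 1.36 for Angpt2, 1.11 for Tek, 0.98 for Pecam1 and 0.96 for Cdh5. Without the first knockout library on HFD, they were -0.956 for Vegfb and 0.98 for Flt1. How many of all genes had an unadjusted p under 0.05 was not counted. The diet effect differed between the genotypes for all 5 endothelial genes, in a test that uses the same WT HFD libraries as the contrasts above and is not separate from them. The interaction was 1.39 for Kdr (SE 0.36, adjusted p = 0.0223), 1.41 for Flt1 (SE 0.35, adjusted p = 0.0196), 1.58 for Tek (SE 0.42, adjusted p = 0.0238), 1.40 for Pecam1 (SE 0.36, adjusted p = 0.0222) and 1.26 for Cdh5 (SE 0.37, adjusted p = 0.0344). With Vegfb, 6 of the 10 genes were called for the interaction, against 17.4% of all genes (8.69% higher and 8.73% lower). The 5 calls of endothelial genes were lost with the WT HFD pair as 1 sample (adjusted p from 0.083 to 0.116) and without the second library of either Ad-Yap/Taz-KO group (0.0569 to 0.112). They were also lost without either WT HFD library or the first WT library on NC (0.0698 to 0.146), and those of Tek, Pecam1 and Cdh5 without the second WT library on NC (0.0528 to 0.071).

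**Figure D4:**
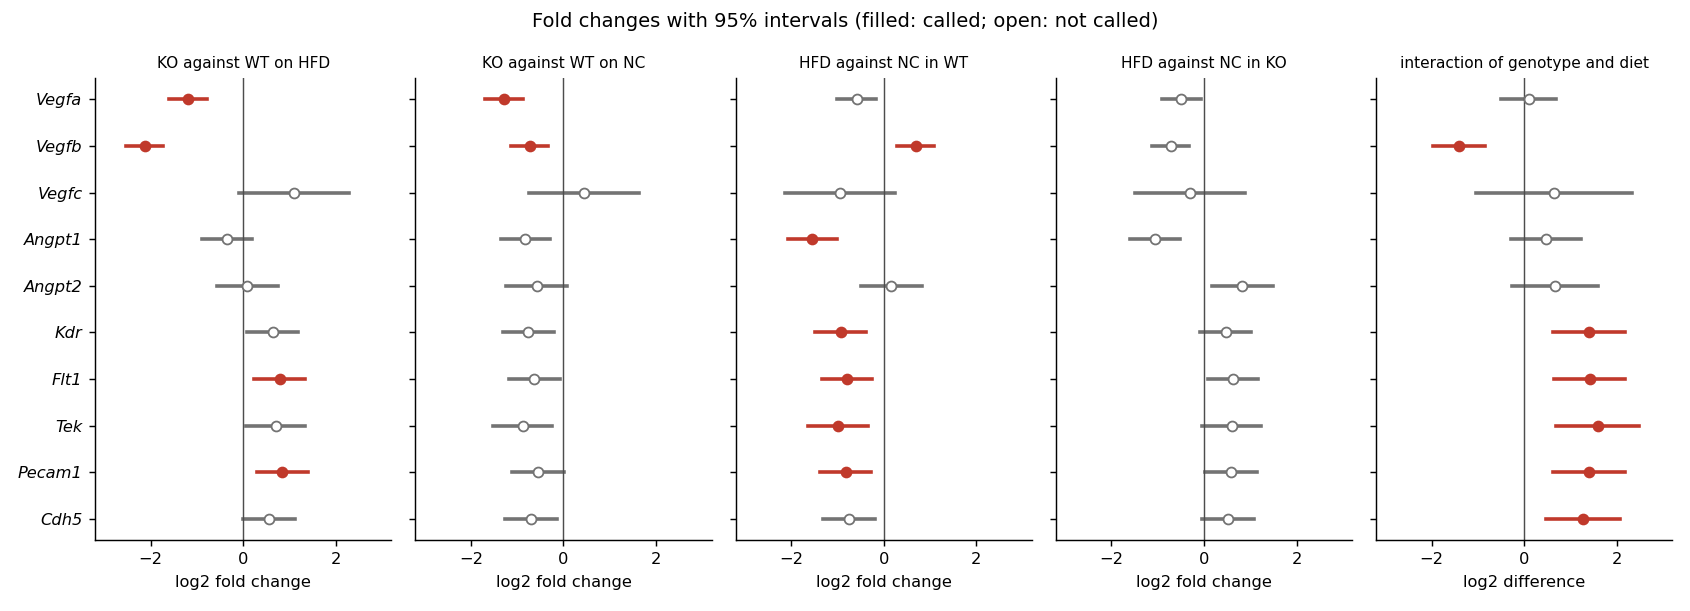
Log2 fold change (x axis; for the interaction, the log2 difference between the diet effects in KO and WT) of the 10 genes (y axis) in 5 contrasts; KO is Ad-Yap/Taz-KO, bars are 95% intervals from limma, and filled red points were called. Vegfa and Vegfb are lower in KO on either diet, and the 5 endothelial genes are below 0 for KO against WT on NC and for HFD in WT, and above 0 for KO against WT on HFD and for the interaction.

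The 5 endothelial genes kept nearly the same share of the summed 20 endothelial markers in every library. Cdh5 was 22.4% to 27.5% of that sum, a range of 1.23-fold, and Pecam1 (17.3% to 21.8%), Flt1 (17.0% to 21.5%), Kdr (11.2% to 15.3%) and Tek (3.10% to 4.58%) ranged 1.26-, 1.27-, 1.37- and 1.48-fold. By contrast, Vegfb was 1.10% to 10.98%, Vegfa 6.63% to 31.9% and Angpt1 0.764% to 3.34% of the same sum. The sum itself was 36686 and 33037 in WT on NC, 32181 and 18394 in the knockout on NC, 22017 and 22979 in WT on HFD, and 28155 and 41000 in the knockout on HFD. The summed 5 erythroid markers were highest in WT on NC as well (1675 and 1164), and were 806 and 425, 360 and 446, and 611 and 1158 in the other groups in that order.

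Between the endothelial genes, small differences remained. Flt1 was 1.38 and 1.42 times Kdr in normalized counts in WT on NC, 1.51 and 1.55 times in Ad-Yap/Taz-KO on NC, 1.56 and 1.52 times in WT on HFD, and 1.70 and 1.71 times in Ad-Yap/Taz-KO on HFD. On each diet the ratio was higher in both knockout libraries than in both WT libraries. Pecam1 divided by Cdh5 was 0.767 and 0.763 in WT against 0.821 and 0.872 in the knockout on NC, and 0.716 and 0.738 against 0.862 and 0.910 on HFD. Macrophage markers were also higher in the knockout libraries, and their part in these ratios was not tested.

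**Figure D5:**
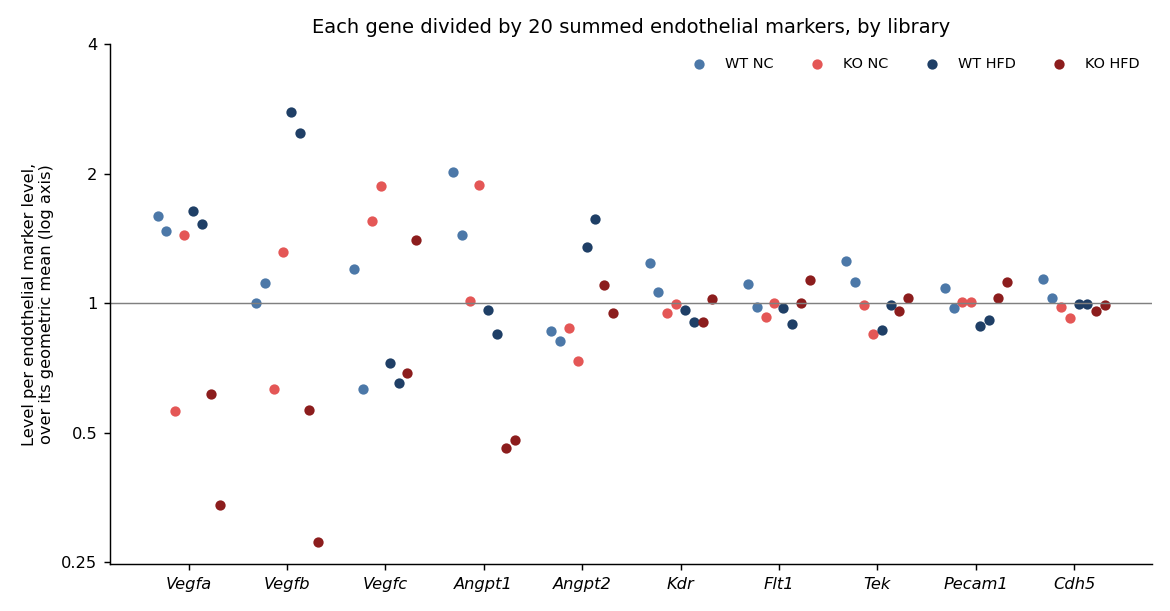
Each gene divided by the summed 20 endothelial markers of its library, over its geometric mean across the 8 libraries (y axis, log scale; 1 is the mean), for the 10 genes (x axis), with points for libraries coloured by group (KO is Ad-Yap/Taz-KO). Kdr, Flt1, Tek, Pecam1 and Cdh5 stay close to 1 in all libraries, while Vegfa and Vegfb are spread widely (6.63% to 31.9% and 1.10% to 10.98% of the sum), with the lowest points in Ad-Yap/Taz-KO on HFD.

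Of the 20 other endothelial markers, 8 were higher and 0 lower in Ad-Yap/Taz-KO on HFD, where 17.1% of all genes were called higher (median log2 difference 0.66, against 0.09 over all genes). They were led by Rasip1 (1.59), Plvap (1.28), Icam2 (1.17) and Vwf (1.03). On NC, 0 were higher and 2 lower, beside 4.71% of all genes called, and the 2 were Clec14a (-1.57) and Gpihbp1 (-0.91), the second being the capillary carrier of lipoprotein lipase. The other 18 were not called on NC, and the median of the 20 was -0.59, against -0.01 over all genes. With HFD in WT, 0 rose and 8 fell, where 9.22% of all genes fell (median -0.75, against -0.08 over all genes), among them Egfl7 (-1.41), Rasip1 (-1.33), Sox18 (-1.16) and Icam2 (-1.13). For the interaction 13 of the 20 were called, all higher, where 8.69% of all genes were called higher. These counts fell to 3, 1, 1 and 1 in the same order with the WT HFD pair as 1 sample. With libraries scaled to the same total, the count on HFD rose to 13 and that with diet in WT to 15, and the latter was 14 with only the 2 groups compared. The count of 13 for the interaction was 8 with a pseudocount of 0.1, 7 with the replicate block and 2 with no filter on low values. On NC the count was 11 without the first knockout library on NC and 0 without any 1 of the other NC libraries. The count on HFD was 2 to 5 without either WT library or the second knockout library on HFD, and that with diet in WT was 1 to 3 without any 1 of the WT libraries and 13 without the second knockout library on NC. The count for the interaction was 2 to 5 without any 1 of the WT libraries or the second library of either knockout group. Markers of mural cells, which wrap capillaries, had 2 of 10 higher and 2 lower on HFD between the genotypes, and their sums of 18008 and 19644, 15354 and 10182, 14564 and 14888, and 11260 and 16030 (groups in the order above) overlapped on HFD.

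Of 30 further genes of the VEGF and angiopoietin pathway, 3 were higher and 11 lower in Ad-Yap/Taz-KO on HFD (median log2 difference -0.22), that is 14 of 30 beside the 32.2% of all genes given above. Fgf2, an angiogenic growth factor, fell by 2.46 (adjusted p = 1.97e-06), from 1747 and 1590 normalized counts to 344 and 266. Adm, a vasodilator peptide that also drives lymphatic growth, fell by 1.76 (adjusted p = 6.52e-05), and Vhl, which marks hypoxia-inducible factors for breakdown, by 2.09 (adjusted p = 0.000367). Nrp2, a VEGF co-receptor found on lymphatic endothelium and also on macrophages, rose by 1.97 (adjusted p = 2.42e-05), from 1465 and 1666 to 5980 and 6235. The macrophage markers rose in the same comparison, 9 of 9. With the WT HFD pair as 1 sample, or without its first library, 9 of the 30 were called in place of 14.

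On NC, 0 of the 30 were higher and 4 lower in Ad-Yap/Taz-KO, beside 4.71% of all genes called. Adm fell by 1.37 (adjusted p = 0.00213), from 706 and 890 normalized counts to 278 and 335, without overlap. Aplnr, the apelin receptor (-1.15), Dll4, a Notch ligand of tip cells (-1.07), and Angptl4, an inhibitor of lipoprotein lipase (-0.72), were the others. Adm and Angptl4 are also known to be induced by low oxygen. Without 1 or the other WT library on NC, the count of 4 fell to 1 and to 0. It was 7 without the first knockout library on NC, and 2 without the second or without the first WT library on HFD.

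With HFD in WT, 5 of the 30 rose and 4 fell, beside 18.0% of all genes called. Aplnr fell by 1.73 (adjusted p = 0.000785), Pdgfb, which recruits pericytes, by 1.30 and Dll4 by 1.07, while Vhl rose by 1.38. This count of 9 fell to 1 with the WT HFD pair as 1 sample, to 1 and 5 without the first and the second WT library on NC, and to 2 and 1 without those on HFD. In Ad-Yap/Taz-KO, Thbs2, an inhibitor of angiogenesis, rose by 1.63 with HFD (adjusted p = 0.00293) and Fgf2 fell by 1.37 (adjusted p = 0.00955), which makes 2 of the 30 beside 1.07% of all genes called. This count of 2 was 0 with no filter on low values or with only the 2 groups compared, 4 without the first knockout library on NC and 1 without the second. The interaction was called for 9 of the 30, 5 higher and 4 lower, beside 17.4% of all genes, and was led by Vhl (-1.89), Pdgfb (1.80), Fgf2 (-1.78) and Aplnr (1.77). This count of 9 was 3 with the WT HFD pair as 1 sample or with no filter on low values. Without the first WT library on NC the count was 2, and without the first and the second WT library on HFD it was 3 and 5.

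Genes known to be induced by low oxygen were described by a list of 20. On NC, where Vegfa was lower in Ad-Yap/Taz-KO, 0 of 20 were called by limma, near the 4.71% of all genes called, and 4 had an unadjusted p under 0.05. The median log2 difference was -0.12, against -0.01 over all genes. The log2 differences of the most abundant were -0.15 for Pfkfb3, 0.52 for Aldoa and -0.28 for Hk2. A part of low oxygen in the level of Vegfa was not tested, here or in the other contrasts. On HFD, 7 were lower and 1 higher in Ad-Yap/Taz-KO (median -0.08, against 0.09 over all genes), that is 8 of 20 beside 32.2% of all genes called. They were led by Vldlr (-1.65), Bnip3 (-1.60), P4ha2 (-1.30) and Pfkfb3 (-1.23). With HFD in WT, where Vegfa was lower as well, 5 rose and 2 fell, that is 7 of 20 beside 18.0% of all genes called, with a median of 0.35 against -0.08 over all genes. They were led by Vldlr (2.11), Eno1 (1157 and 1189 against 2507 and 2668 normalized counts), P4ha2 (0.92) and Aldoa (0.90). In Ad-Yap/Taz-KO, 1 of the 20 was called with diet, Bnip3 (-0.88, adjusted p = 0.0406). This count was 3 without the first knockout library on NC, 5 without the first knockout library on HFD and 0 without any 1 of the other 6 libraries, and it was also 0 with a pseudocount of 0.1, with no filter on low values, with only the 2 groups compared and with the replicate block. Eno1, Aldoa and Pfkfb3 act in glycolysis, and Vldlr is a lipoprotein receptor. With the WT HFD pair as 1 sample, the count of 8 on HFD became 5, the count of 7 in WT became 1 and the count of 1 in Ad-Yap/Taz-KO became 0. Without either WT library or the second knockout library on HFD, the count of 8 became 4 or 5, and without any 1 of the WT libraries the count of 7 became 1 or 3.

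Across the 8 libraries, the genes whose log2 levels were most like those of Vegfa among 12093 with a mean of at least 50 were Chac1 (Pearson r = 0.987), Slc25a25 (0.982) and Btg2 (0.980). Btg2 had 17818 and 18759 normalized counts in WT against 6533 and 8922 in the knockout on NC, and 11358 and 11301 against 4806 and 4972 on HFD. Those most like Cdh5 were Tek (0.994), Sh2d3c (0.992) and Pknox1 (0.983). These correlations describe 8 libraries that share the groups and the scaling, and they were chosen as the highest of many.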

How the data were processed

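RNA of isolated epididymal white adipocytes was sequenced in 8 libraries, 2 in each of 4 groups, and samples were grouped by their labels, which give no batch. Per the study's methods, RNA was depleted of ribosomal RNA, made into libraries with the SMARTer Stranded kit and read single-end. Reads were trimmed with Reaper, aligned with STAR 2.5.2b and counted on exons with featureCounts 1.5.1, leaving out reads on several genes or places; DESeq2 1.14.1 was the authors' test. Use of strand was not given in the sources used here. The deposited values are a score: the authors scaled the gene counts with a size factor for each library and then rounded them (normalized counts here), so tests for raw counts were not run. The value of 1 read was estimated from which whole numbers occur, giving 14.0 to 22.3 M reads on genes; reads carry no molecular identifiers, and noise between libraries exceeded counting error.

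Genes with a mean of at least 5 (18800 of 30387) were tested in R 4.3.3 with limma 3.58.1 (lmFit, contrasts.fit, eBayes with trend). A pseudocount of 1 was added before taking log2, the scale on which fold changes are given. All 4 groups shared 1 fit, whose degrees of freedom were 4 (residual) and 8.59 (prior). All adjusted p-values are Benjamini-Hochberg values over all genes tested. A call required an adjusted p no higher than 0.05 with a log2 difference of 0.59 or more. An exact permutation of 2 libraries against 2 cannot give a p below 0.333, so none was run. Values of such groups without overlap therefore carry little weight, and the share of all genes without overlap was not counted. The fit was tested on simulated data. The 10 genes, the lists and the markers were chosen with earlier results of these data known, and the limits of a call follow the study's methods. Named from each list were up to 4 called genes with the largest change and a mean of at least 50, or, with none called, the 3 most abundant. Tie1 and Ptprb stand in both the pathway and the endothelial list, and Itgam, which has several rows, was left out of the macrophage markers. Exon lengths and overlaps came from GENCODE vM21, where 30259 of the identifiers were found, and promoters from RefSeq (GRCm38.p6). Tables and figures were made with Python 3.11.15, pandas 2.3.3 and matplotlib 3.10.9. Protein sequences were not used here.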

Additional observations from a re-analysis of the deposited data

Results flagged for a closer look

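The effect of HFD differed between the genotypes, by the interaction in limma, for 6 of the 10 genes, where 17.4% of all genes were called. The log2 difference between the diet effect in Ad-Yap/Taz-KO and that in WT was -1.40 for Vegfb, which rose in WT and was lower without passing the test in Ad-Yap/Taz-KO. It was 1.39 for Kdr, 1.41 for Flt1, 1.58 for Tek, 1.40 for Pecam1 and 1.26 for Cdh5. Among these, the call of Vegfb held under all 20 alternatives fitted with limma, and the calls of the other 5 held under 9 to 12 of the 20. Divided by the summed adipocyte markers, the value of -1.40 for Vegfb became 0.055 with all 10 markers and 0.064 without Cfd. That ratio had no test and was chosen after the values were seen. It depends on the markers summed, and ratios to a sum without Lep, or to Fabp4 alone, were not computed. The endothelial markers that are not among the 10 genes moved with those 5, and their part was not tested. Of the adipocyte markers, 9 of 10 were called lower for the interaction, where 8.73% of all genes were. Between the genotypes on NC, where Vegfb was called lower, 0 of 10 were called, beside 4.71% of all genes. The part of adipocytes was not tested.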

How the results depend on the processing

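Of 1040 values of the 10 genes under alternatives, 873 kept direction and call, 113 lost a call, 44 gained one and 10 changed sign without a call in either. The calls of Vegfa between genotypes, of Vegfb on HFD and for the interaction, and of Angpt1 with diet in WT held under all alternatives fitted with limma. Between genotypes on HFD, the 4 calls became 2 with no filter on low values, 7 with libraries scaled to the same total, 2 with the WT HFD pair as 1 sample and 2 at an adjusted p of at most 0.01, and 2 to 8 when 1 library was left out. On NC, the 2 calls became 1 with a pseudocount of 0.1, with no filter, with only the 2 groups compared, with the replicate block, with the WT HFD pair as 1 sample and at an adjusted p of at most 0.01, and 1 to 5 when 1 library was left out. With diet in WT, the 6 calls became 3 with a pseudocount of 0.1 and 3 with the replicate block, 1 with no filter, with the WT HFD pair as 1 sample or at an adjusted p of at most 0.01, and 1 to 7 when 1 library was left out. With diet in Ad-Yap/Taz-KO, 0 became 1 with a pseudocount of 8, and 0 to 6 when 1 library was left out (6 without the first library on NC). For the interaction, the 6 calls became 1 with no filter, with the WT HFD pair as 1 sample or at an adjusted p of at most 0.01, and 1 to 7 when 1 library was left out. Fits that leave out a library, or average a pair, have fewer samples, and the lone sample is assumed to vary like the other groups. Other causes were not tested. Shares of all genes called are given for the main fit only, so counts under alternatives, or of unadjusted p-values, have no such share beside them. Same-total scaling moved the median log2 difference of all genes from 0.09 to 0.47 between genotypes on HFD, from -0.08 to -0.48 with diet in WT and from 0.10 to 0.52 for the interaction. The block lost 1 call on NC (Vegfb), 3 with diet in WT (Flt1, Tek, Pecam1) and 1 for the interaction (Cdh5); the numbers share no stated batch, and deviations of same-numbered libraries correlated from -0.30 to 0.11. Divided by the adipocyte markers, an alternative added after the values were seen and computed with no pseudocount, the log2 difference of Vegfa on HFD turned from -1.19 to 0.34 with all 10 markers and 0.37 without Cfd; on NC it stayed at -1.22 and -1.19. With diet in the knockout, Vegfa turned from -0.49 to 0.63 and 0.14. In the same order, the difference of Vegfb on HFD moved from -2.13 to -0.61 and -0.57, its diet change from 0.69 to 0.35 and -0.14 in WT and from -0.72 to 0.40 and -0.08 in the knockout, and the difference between these from -1.40 to 0.055 and 0.064. Of these markers, only Cfd was left out in turn. Lep, with a log2 difference of -4.45 between the genotypes on HFD, stayed in both sums. Protein identities were not run.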

Other observations

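Markers of lymphatic endothelium, the cells on which Vegfc acts, were measured by 5 genes (Prox1, Flt4, Lyve1, Pdpn, Ccl21a). They summed to 866 and 870 normalized counts in WT on NC, 1012 and 607 in Ad-Yap/Taz-KO on NC, 513 and 516 in WT on HFD, and 879 and 1343 in Ad-Yap/Taz-KO on HFD. Between the genotypes on HFD, 1 of the 5 was called higher by limma and 0 lower (median log2 difference 1.20), and with HFD in WT 1 was called lower (median -1.36). Over all genes, 17.1% were called higher in the first comparison (median 0.09) and 9.22% lower in the second (median -0.08), so that 1 of 5 was near the background. Lyve1 and Pdpn are also made by macrophages or stromal cells, and both macrophage markers (9 of 9) and markers of fibroblasts and progenitors (7 of 10) were higher on HFD in Ad-Yap/Taz-KO; their part was not tested. The ratio of Vegfa to Vegfb was 7.88 and 6.53 in WT on NC, 4.40 and 5.41 in Ad-Yap/Taz-KO on NC, 2.90 and 3.03 in WT on HFD, and 5.37 and 6.04 in Ad-Yap/Taz-KO on HFD, so that WT had the higher ratio on NC and the lower ratio on HFD.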
